A study of Camelus dromedarius with 4 samples.

Results

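CD163, MRC1, LYVE1, STAB1, F13A1, SIGLEC1 and MSR1 are 7 of the 16053 gene symbols with season means in RNA-seq of the dromedary camel supraoptic nucleus. They were chosen by name as genes of perivascular macrophages, with their season means already known, so the season values below are a description and carry no test. The supraoptic nucleus is the hypothalamic nucleus of magnocellular neurones that make the hormones vasopressin and oxytocin. RNA of this tissue was sequenced in 2 winter and 2 summer libraries, after removal of ribosomal RNA. The summer group came from healthy, age-matched adult male camels of the Tergui breed slaughtered in Ouargla, and the winter group from such animals slaughtered in El Oued. The labels name no treatment other than season. Season and place of slaughter went together and cannot be told apart. For the RNA-seq the study counts camels in a supplementary figure legend and tissues in its methods. The labels tie no library to an animal, so the spread between libraries of a season may hold both animal and technical differences.

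Perivascular macrophages lie along the small vessels of the brain, between the vessel wall and the basement membrane that borders the neural tissue. They take up material from the blood and the tissue fluid through scavenger receptors and lectins, and in rodents many of the genes examined here tell them from the microglia of the parenchyma. Other cells express some of these genes too: LYVE1 and STAB1 are found on endothelium of lymphatic vessels and sinusoids, and F13A1 in platelets and their precursors. In bulk tissue, fewer cells of a type and less RNA per cell cannot be told apart.

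The deposited table gives, for each season, the mean over the libraries of read counts divided by DESeq size factors. Because each such mean is a sum of whole reads, the reads of each library could be solved from it, and in this way both libraries of a season became visible. A value per library is called normalized reads: reads divided by the library's size factor. The recovered libraries carry no replicate number and are called A and B in each season, A being the one with the larger size factor. The size factors were 0.922 and 0.877 in summer and 1.33 and 0.946 in winter. A single solution existed for 9864 of 16049 symbols. On the separate count files, 4379162 to 6902037 reads per library fell on gene models. Neuronal genes of the nucleus were present in both seasons. AVP, the vasopressin precursor, had a mean of 11822 in summer and 2560 in winter, under a deposited symbol marked as putative. OXT, the oxytocin precursor, had means of 592 and 621 in the same order. The 2 genes are alike in part of their sequence, and reads shared between them could not be separated. One library stood apart in these markers. The 6 genes of magnocellular neurones with single solutions summed to 331 normalized reads in summer library A, 351 in summer library B, 307 in winter library A and 118 in winter library B. None of the 6 was higher in winter library B than in A, with a median log2 ratio, B over A, of -1.58. SIM1 and OTP, transcription factors of these neurones, had 63.4 and 79.2 in winter library A and 13.7 and 21.2 in winter library B. The part of this in the members' values was not tested, and each member is given below or in the plot of leave-one-out ratios without that library too.

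Of the 7 genes, 4 had the higher mean in summer (CD163, MRC1, STAB1 and F13A1) and 3 in winter (LYVE1, SIGLEC1 and MSR1). Of the 13808 symbols whose mean reached 10 in winter or in summer, 53.8% had the higher mean in summer. On the log2 scale, winter over summer, the 7 genes had a median ratio of -0.89, against -0.04 over those symbols. That median was 0.76 without summer library B and -0.51 without summer library A, so its direction rested on summer library B. Of the 7, 6 reached the mean of 10 and SIGLEC1 did not. The recovered reads showed, however, that the 2 summer libraries differed more from each other than the seasons did for several of the genes. They did not do so in the same direction for all members.

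CD163, the receptor that clears complexes of haemoglobin and haptoglobin, had the most reads of the set in summer. It stood at 420 reads (455 normalized) in summer library A and 124 reads (141 normalized) in summer library B. In winter its mean of 151 allowed 2 solutions in whole reads. One is 187 reads (141 normalized) in library A and 152 reads (161 normalized) in library B. The other is 2 reads (1.51 normalized) in library A and 284 reads (300.3 normalized) in library B. Of 7606 tested symbols, 0% had a wider split between the winter libraries than this other solution, and 77.9% a wider one than the first. The season mean alone does not settle which solution holds. Under either solution the seasons overlapped, since summer library B lay below at least 1 winter library. Under the first solution summer library B and both winter libraries were close together and summer library A alone stood above them. The mean was 1.98-fold higher in summer, a log2 ratio of -0.98. Without summer library A the log2 ratio became 0.09 under both solutions.

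MRC1, the macrophage mannose receptor, a lectin that binds and internalises glycoproteins, had the widest split between the summer libraries. Its reads were 13 (14.1 normalized) in summer library A and 201 (229 normalized) in summer library B. In winter they were 64 (48.3 normalized) in library A and 78 (82.5 normalized) in library B. Both winter libraries therefore lay between the summer libraries, which were 16.3-fold apart. The season means were 122 ± 152 in summer and 65.4 ± 24.2 in winter (SD, n = 2 libraries each). The log2 ratio was -0.89 with all libraries, 2.21 without summer library B, -1.81 without summer library A and -1.33 without winter library B. The higher summer mean of MRC1 thus rested on summer library B.

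LYVE1, a hyaluronan receptor, had few reads. It had 6 reads (6.51 normalized) in summer library A and 17 reads (19.4 normalized) in summer library B. In winter it had 31 reads (23.4 normalized) in library A and 9 reads (9.52 normalized) in library B. High and low libraries alternated between the seasons, which overlapped. Its log2 ratio of 0.35 became -0.24 without summer library A and -0.44 without winter library A.

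STAB1, stabilin-1, a multidomain scavenger receptor, had 27 reads (29.3 normalized) in summer library A and 46 reads (52.4 normalized) in summer library B. In winter it had 27 reads (20.4 normalized) in library A and 14 reads (14.8 normalized) in library B. Both summer libraries lay above both winter libraries, as they did for 17.2% of the 7623 symbols with single solutions and a mean that reached 10 in either season. The mean was 2.32-fold higher in summer. The log2 ratio of -1.22 lay between -1.58 and -0.74 when each library was left out in turn.

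F13A1, the A subunit of coagulation factor XIII, a transglutaminase that cross-links fibrin, was the member with the largest difference in favour of summer. It had 54 reads (58.6 normalized) in summer library A and 21 reads (23.9 normalized) in summer library B. In winter it had 11 reads (8.30 normalized) in library A and 17 reads (18.0 normalized) in library B. Both summer libraries again lay above both winter libraries, but the gap between the lower summer and the higher winter value was small beside the 95% counting intervals of 14.8 to 36.6 and 10.5 to 28.8 normalized reads. The mean was 3.14-fold higher in summer, a log2 ratio of -1.65 with a range of -2.31 to -0.87 when each library was left out. Differences of more than 2-fold in favour of summer were present in 4.53% of symbols, and in 2 of the 7 members, STAB1 and F13A1. In favour of winter they were present in 2.72% of symbols, and among the members in SIGLEC1, which was below the filter. Because the set was chosen with these values known, nothing is read from that count.

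SIGLEC1, sialoadhesin, a lectin for sialic acid on macrophages, was barely detected. It had 3 reads and 1 read in the summer libraries A and B, and 9 and 4 reads in the winter libraries A and B. Each winter library lay above each summer library, as for 13.4% of tested symbols, but all summer values were at or below 3 reads, the limit that a count of 0 allows. From the total of 13 winter and 4 summer reads the ratio of normalized reads was 2.58, with an exact 95% counting interval of 0.796 to 10.8.

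MSR1, the class A macrophage scavenger receptor for modified lipoproteins, had 6 reads (6.51 normalized) in summer library A and 24 reads (27.4 normalized) in summer library B. In winter it had 16 reads (12.1 normalized) in library A and 25 reads (26.4 normalized) in library B. The winter values lay inside the summer range. Its log2 ratio of 0.19 became -0.51 without summer library A and -0.49 without winter library B.

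**Figure D1:**
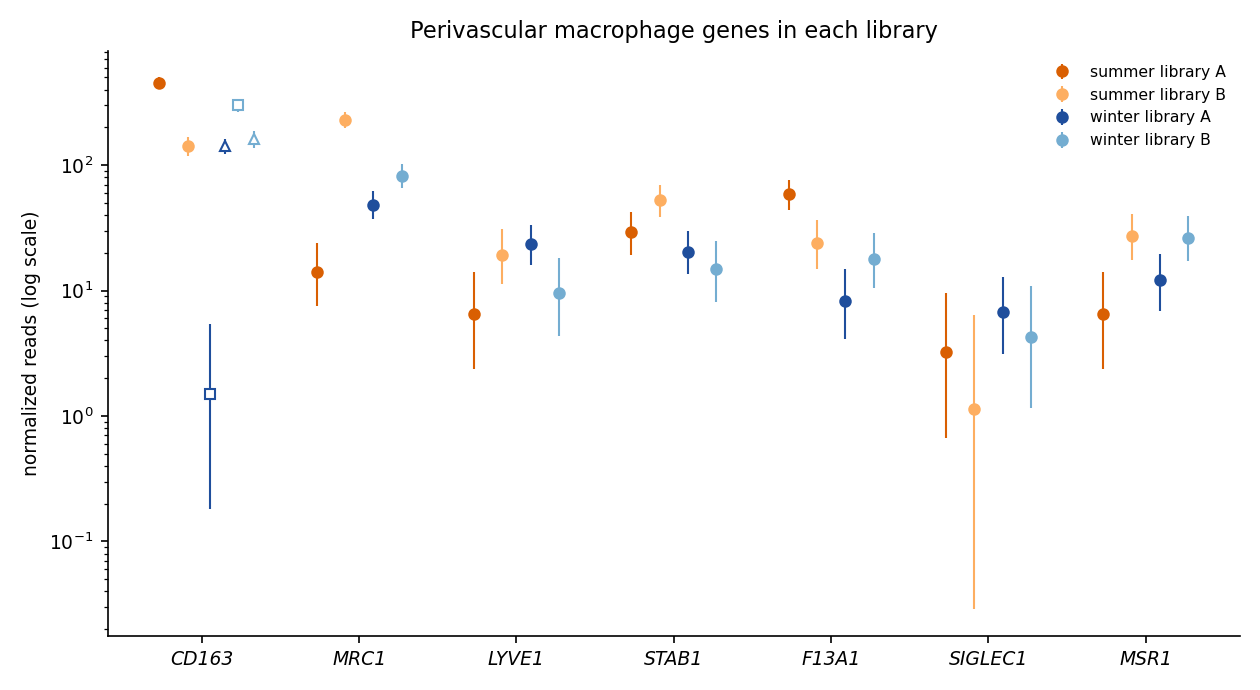
Normalized reads (log axis) of the 7 genes in the 4 recovered libraries, with exact 95% Poisson intervals, which cover counting error only. Open squares and open triangles are the alternative winter solutions of CD163 (squares, 2 and 284 reads; triangles, 187 and 152 reads); MRC1 runs from 14.1 in summer library A to 229 in summer library B.

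The edgeR quasi-likelihood fit over the 7623 symbols gave the log2 fold changes, winter over summer, of the 5 members that had single solutions and passed the filter. They were -0.90 ± 0.94 (SE) for MRC1, 0.41 ± 0.86 for LYVE1, -1.19 ± 0.62 for STAB1, -1.70 ± 0.74 for F13A1 and 0.15 ± 0.87 for MSR1. For MRC1, LYVE1 and MSR1 the standard error was as large as the fold change or larger. CD163 was left out for its unresolved winter reads and SIGLEC1 for its low mean.

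**Figure D2:**
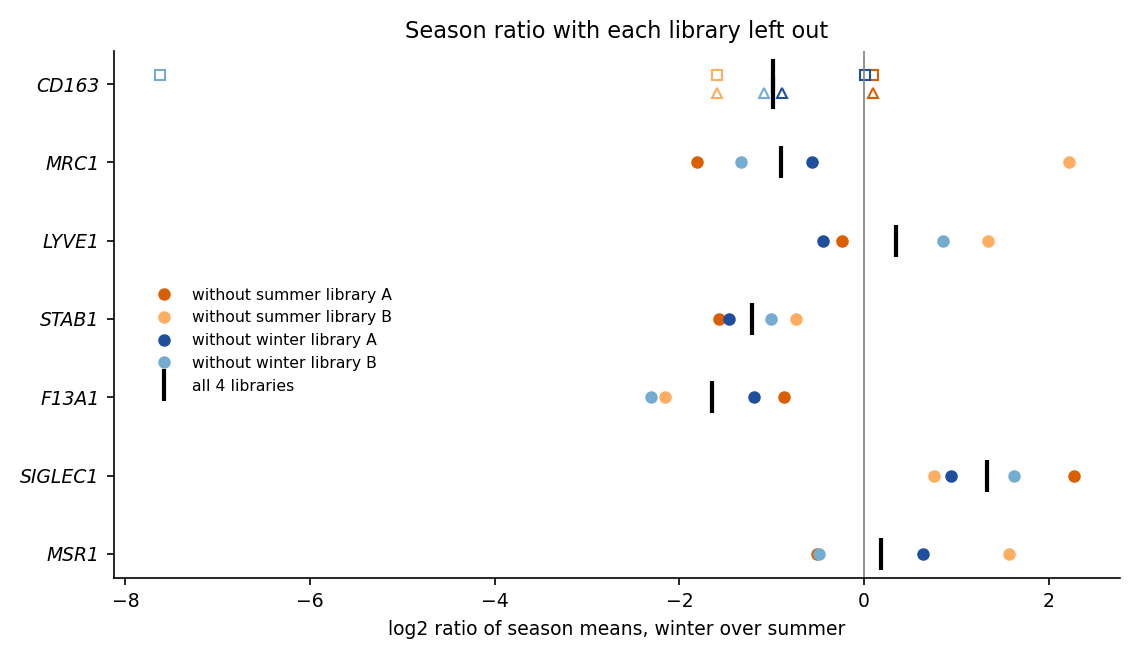
Log2 ratio of the season means, winter over summer, of each gene with all 4 libraries (black bars) and after leaving out 1 library at a time (coloured points; open squares and triangles for the alternative winter solutions of CD163). STAB1, F13A1 and SIGLEC1 stayed on one side of 0, whereas CD163, MRC1, LYVE1 and MSR1 crossed it.

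Between the summer libraries the members fell into opposite directions. CD163 was 3.22-fold and F13A1 2.45-fold higher in library A, whereas MRC1 was 16.3-fold, MSR1 4.20-fold, LYVE1 2.98-fold and STAB1 1.79-fold higher in library B. From the size factors, library A would take 51.2% of the summer reads of a gene that was equal in both. It took 77.2% of the CD163 reads (exact 95% binomial interval 73.4 to 80.7%), which lies above that share. It took 6.07% of the MRC1 reads (3.27 to 10.2%), which lies far below it. The shares were 72.0% for F13A1 (60.4 to 81.8%), 37.0% for STAB1 (26.0 to 49.1%), 26.1% for LYVE1 (10.2 to 48.4%) and 20.0% for MSR1 (7.71 to 38.6%). All 6 intervals left out 51.2%, and they cover counting error only. That share depends on the scaling. Recovered reads of symbols with single solutions totalled 375403 in summer library A and 437869 in B, so a share from totals would be lower. Scaled by these totals, the log2 ratio, B over A, was 0.57 for STAB1 and 1.30 for LYVE1, against 0.84 and 1.57 with the size factors. The STAB1 and LYVE1 intervals ended closest to 51.2%, and both hold the share that these totals give. The intervals of CD163, MRC1, F13A1 and MSR1 leave out that share too. CD163 reads were 32.3 times the MRC1 reads in summer library A and 0.617 times in summer library B.

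In winter the splits were smaller than in summer for each of the 5 members with single solutions and means of 10 or more. The winter libraries were 1.71-fold apart for MRC1, 1.38-fold for STAB1, 2.19-fold for MSR1, 2.17-fold for F13A1 and 2.46-fold for LYVE1. F13A1, MRC1 and MSR1 were higher in winter library B, and LYVE1 and STAB1 in winter library A. For F13A1, LYVE1 and STAB1 this was the opposite library letter to summer, but the letters only order size factors and pair nothing across seasons. Over the symbols tested, 31.9% were more than 2-fold apart between the summer libraries and 16.6% between the winter libraries. A summer split wider than that of MRC1 was present in 2.29% of symbols, and in 1.13% of those with a summer mean within 2-fold of its own. For MSR1 the share at a similar mean was 17.0%, for LYVE1 29.7%, for STAB1 38.9%, for F13A1 22.4% and for CD163 6.62%.

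**Figure D3:**
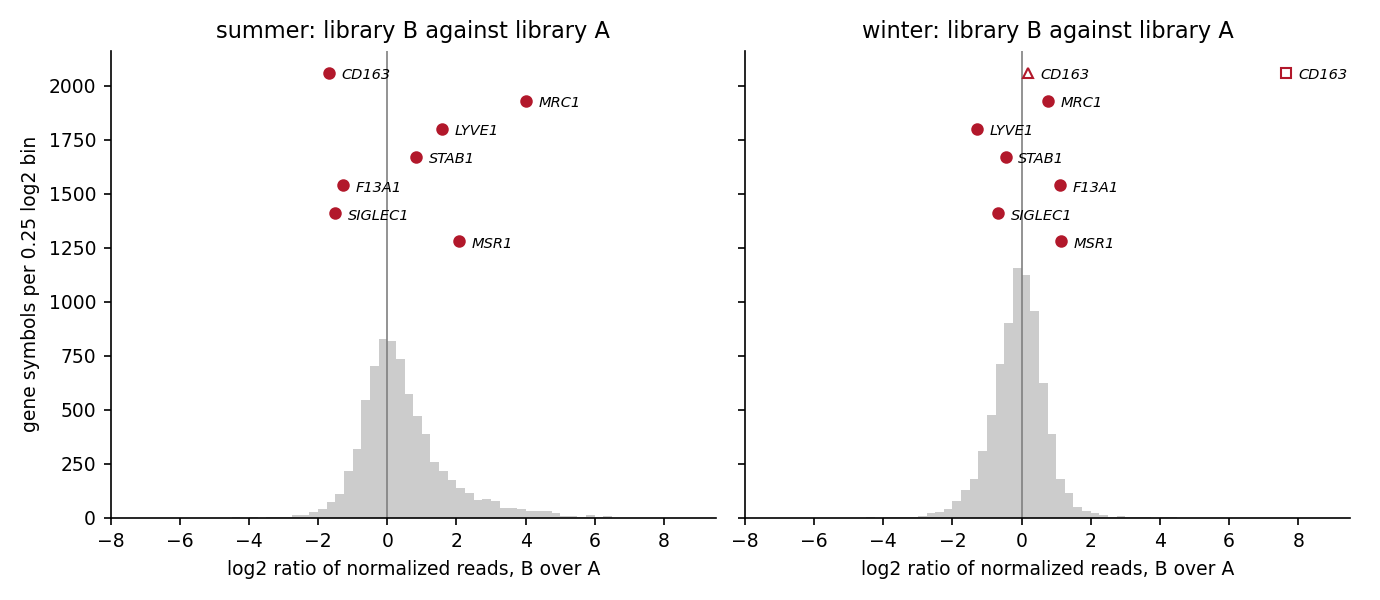
Log2 ratio of normalized reads, library B over library A, in summer (left) and winter (right): grey bars count the tested symbols per bin of 0.25, and red points are the 7 genes, placed in rows for legibility (the open square and triangle are the alternative winter solutions of CD163). In summer MRC1 sits at 4.02 and CD163 at -1.69, on opposite sides of the bulk of symbols.

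The other genes of the same cells were examined from lists of markers. Genes shared by macrophages and microglia went with CD163 and F13A1 in summer. All 6 of those with single solutions and a sufficient mean were lower in summer library B, with a median log2 ratio, B over A, of -0.75 against 0.23 over all symbols. AIF1, a calcium-binding protein of macrophages, had 147 normalized reads in summer library A and 86.6 in B. PTPRC, the leukocyte phosphatase CD45, had 146 and 74.1, and CSF1R, the receptor for macrophage colony-stimulating factor, 77.0 and 35.3. The 8 genes of this list with single solutions at any level summed to 729 normalized reads in summer library A, 432 in summer library B, 540 in winter library A and 638 in winter library B. The defining marker CD68 was at 0 in both summer libraries and had only 3 and 2 reads in winter libraries A and B. It was thus near the floor in both seasons. MRC1, MSR1, LYVE1 and STAB1 therefore ran counter to this list between the summer libraries. Between seasons the 13 genes of the list that reached the mean of 10 had a median log2 ratio of -0.15, with 9 higher in summer and 4 in winter. Over the 6 with single solutions the median was -0.06, and it was 0.44 without summer library A and 0.16 without winter library A. C1QB and C1QC, subunits of complement C1q, had the lowest ratios (-0.61 and -0.53), and CSF1R (0.92) and LAPTM5 (0.43), a lysosomal membrane protein of leukocytes, the highest. None of the 6 tested passed the rule of an unadjusted p under 0.05 with more than 2-fold, which 1.68% of all symbols passed (0.853% higher in winter and 0.826% higher in summer).

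Other genes of brain border macrophages did not move as one. Of 19 listed, 11 reached the mean of 10, and their median log2 ratio between seasons was -0.10. TIMD4, a receptor for phosphatidylserine on dying cells, had 45.5 normalized reads in summer library A, 10.3 in summer library B, 11.3 in winter library A and 23.3 in winter library B. FOLR2, a folate receptor of tissue-resident macrophages, had 5.42 in summer library A, 31.9 in summer library B, 14.3 in winter library A and 13.7 in winter library B. TIMD4 was thus high in the summer library where CD163 was high, and FOLR2 in the one where MRC1 was high. VSIG4, a complement receptor, had the second lowest season ratio after TIMD4 (-0.63 and -0.69), and CD209 (1.10), a lectin, had the highest. MAF, a transcription factor of macrophages, had 57.5 and 61.6 normalized reads in summer libraries A and B. None of the 5 tested passed the rule. CCL24, CLEC10A and MS4A7 had no usable season means, so nothing can be said of their reads.

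Growth factors, receptors and recruitment signals of macrophages were lower in summer library B for 7 of 9 genes, with a median log2 ratio, B over A, of -1.05. Over all tested symbols with reads in both summer libraries, 60.5% were higher in B. CSF2RA, a receptor subunit for the granulocyte-macrophage factor, had 228 and 88.9 normalized reads in summer libraries A and B. CCL2, a chemokine for monocytes, had 22.8 and 1.14. None of the 9 passed the rule between seasons, and the ratios ran from -0.70 for IL13RA1 and -0.50 for CSF2RA to 0.92 for CSF1R and 1.02 for CX3CL1. In microglia, 8 genes reached the mean of 10 and their median log2 ratio was -0.03. Between the summer libraries 3 of 4 microglial genes were higher in B, with a median log2 ratio of 0.43, the opposite side to the list shared with macrophages. GPR34 had the lowest ratio (-0.93) and CSF3R the highest (0.75).

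**Figure D4:**
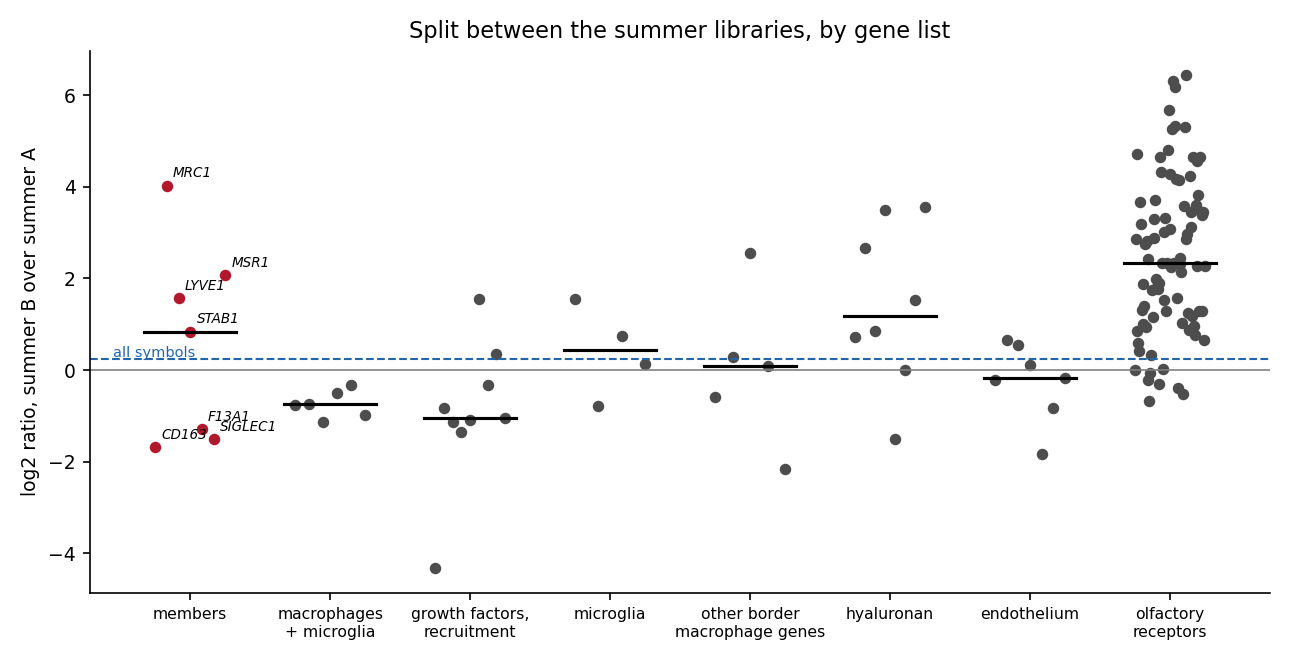
Log2 ratio of normalized reads, summer library B over summer library A, of the 7 genes (red) and of genes of 7 other lists (grey), with list medians as black lines and the median of all tested symbols as a dashed line. Grey points are genes with single solutions whose mean reached 10 in either season; genes shared by macrophages and microglia lie below 0, and olfactory receptors lie mostly above it.

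Library A of summer also had more symbols without a read. Of the 9864 symbols with single solutions, 1476 were at 0 in summer library A, 291 in summer library B, 261 in winter library A and 354 in winter library B. Low symbols were shifted as a class: at means within 2-fold of MSR1, 66.6% of symbols were higher in summer library B, and at means within 2-fold of MRC1, 53.3%. Olfactory receptors, which are genes of nasal sensory neurones and were chosen after the reads were seen, moved in the same way. Of 84 with reads in both summer libraries and a sufficient mean, 78 were higher in library B, with a median log2 ratio of 2.34. Of 230 with single solutions, 118 were at 0 in summer library A and 9 in library B. Olfactory receptors share sequence with one another, so their single counts are uncertain. The part of these differences between the summer libraries in the values of MRC1, MSR1, LYVE1 and STAB1 was not tested. Normalized reads of the 6 members other than CD163 summed to 118 in summer library A, 353 in summer library B, 119 in winter library A and 155 in winter library B. MRC1 made up most of the sum in summer library B. Without it the other 5 summed to 104, 124, 70.9 and 73.0 in the same order. With CD163 all 7 summed to 574 and 495 in summer libraries A and B, and to 260 and 316 or 121 and 456 in winter libraries A and B under its 2 solutions.

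Family relatives of the members were compared with them. CD44, a hyaluronan receptor with a link domain like that of LYVE1, was the only one of 9 tested to pass the rule. It had 144 and 237 normalized reads in summer libraries A and B, and 70.9 and 58.2 in winter libraries A and B. Its log2 fold change was -1.55 ± 0.38 (SE), with an unadjusted p of 0.00421 and an adjusted p of 0.982 in edgeR's quasi-likelihood test with Benjamini-Hochberg adjustment. It passed the rule in all 13 settings run, leaving out each library included, but all of them reuse the same reads. The study had already listed CD44 as higher in summer from these data, so this is not independent support. STAB2, the homologue of STAB1, had 35.8 and 103.7 normalized reads in summer libraries A and B, and 40.7 and 50.8 in the winter libraries. As for STAB1, summer library B was the highest, but the seasons overlapped. F13B, the carrier subunit of factor XIII made by liver, had 1.08 normalized reads in summer library A and 59.3 in B, opposite to F13A1, and 16.6 and 19.0 in the winter libraries.

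Among relatives of MRC1, season ratios on the log2 scale were 0.19 for MRC2, -0.04 for PLA2R1 and -0.32 for LY75. Among transglutaminases, related to F13A1, TGM1 had a ratio of 0.97, and TGM3 had means of 7.81 in summer and 0.529 in winter. Among sialic acid-binding lectins, SIGLEC5 had a ratio of -0.13, SIGLEC10 of 0.11, CD22 of -0.26 and MAG, a lectin of myelin, of 0.69. Among class A scavenger receptors, related to MSR1, COLEC12 had a ratio of -0.21, SCARA3 of -0.34 and SCARA5 of -0.20. MARCO and SIGLEC15 had season means below 2 in both seasons, TGM2 had no usable season means, and CD163L1 and SIGLEC8 were not analysed here. Of the 14 relatives that reached the mean of 10, 10 had the higher mean in summer and 4 in winter. Over the 9 with single solutions the median ratio was -0.26, and 0.22 without summer library B.

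Genes that handle the ligands of the members were taken next. Of 12 genes of hyaluronan, the ligand of LYVE1, 7 were higher in summer and 5 in winter, with a median log2 ratio of -0.31. Over the 9 with single solutions it was -0.61, and 0.52 over 8 without summer library B. CD44 was the one that passed the rule among 9 tested. TNFAIP6, a hyaluronan-binding protein of inflammation, had the next lowest ratio (-1.0), with 7.59 normalized reads in summer library A and 88.9 in B. HAS1, a hyaluronan synthase, had the highest (1.17), with no read in summer library A. Of the 8 genes with single solutions, a sufficient mean and reads in both summer libraries, 7 were higher in summer library B. Over all tested symbols with reads in both, 60.5% were higher in that library. For haemoglobin, the ligand of CD163, and for haem and iron, 14 genes had a median of -0.18 and none of 3 tested passed the rule. HP, haptoglobin, had 24.9 and 39.9 normalized reads in the summer libraries A and B and 9.06 and 16.9 in the winter libraries, a ratio of -1.32. FLVCR2 had a ratio of -1.28, and LRP1, the haemopexin receptor, and SLC48A1, a haem transporter, had the highest ratios (0.58 and 0.67). Of 13 other scavenger receptors, 11 were higher in summer, with a median of -0.21 and none of 8 tested past the rule. CD36, a receptor for fatty acids and modified lipoproteins, had the lowest ratio (-0.89), with 62.9 and 235.9 normalized reads in summer libraries A and B.

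Markers of other cells that a vessel-rich sample could hold were measured too. Blood vessel endothelium had a median log2 ratio of -0.12 over 13 genes, pericytes and smooth muscle -0.05 over 9, fibroblasts -0.17 over 8, and lymphatic endothelium, which shares LYVE1 and STAB2, -0.61 over 5. Blood monocytes and neutrophils had a median of -0.36 over 5 genes, T, B and NK lymphocytes -0.74 over 5, and red cells and platelets 0.11 over 5. S100A9, FCN1 and CXCR2 of the blood myeloid list had no usable season means, so their presence could not be judged. Of 15 interferon response genes, 13 were higher in summer, with a median of -0.48. The 11 with single solutions summed to 1002 and 1231 normalized reads in summer libraries A and B, and to 1022 and 550 in winter libraries A and B. Over these 11 the median was -0.55, and -0.13 without winter library B, with 7 of 11 then higher in summer. Genes of magnocellular neurones had a median of 0.02 over 12. Over the 6 with single solutions it was -0.29, and 0.07 without winter library B. COL1A2, a collagen of fibroblasts, passed the rule at a log2 fold change of -1.02 ± 0.39 (SE) (adjusted p = 0.982, edgeR), but in 6 of 13 settings in all. PDYN, prodynorphin, passed at -1.76 ± 0.68 (SE) (adjusted p = 0.982, edgeR), in all settings but the one without winter library B. In the fit on recovered reads the medians were -0.53 for endothelium and -0.52 for pericytes and smooth muscle, against -0.11 over all 7623 symbols. The part of these cells in the values of the 7 members was not tested.

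The genes most like the members were found by Euclidean distance of centred log2 (normalized reads + 1) over the 4 libraries from the median profile of the 6 members with single solutions. Among the nearest 10 were ZNF81, TADA1, GSKIP, RNASE7, GBP6, VWA3A, VWCE, RECK and POP1. The nearest, ZNF81, had 22.8 and 47.9 normalized reads in summer libraries A and B and 24.1 and 31.7 in winter libraries A and B. Its distance of 0.0712 compares with 0.991 for MSR1, the closest member, and 2.17 for F13A1, the farthest. Being picked as the nearest of all symbols, these genes are nearer to that profile by construction.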

How the data were processed

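Libraries were grouped by season from their labels. The authors aligned reads with TopHat to their own dromedary assembly and counted them with HTSeq; versions are not given in the sources used here. The deposited count files hold raw counts for 64989 gene models without symbols, and served for library totals only. The deposited table holds, per symbol, a signal made by the authors (the season's mean of counts scaled by DESeq size factors), and their fold ratio and unadjusted p-value, which were not used. All season means were solved as sums of whole reads of 2 libraries, and 9864 of 16049 symbols had a single solution; genes with high means rarely do. This does not name the replicates.

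The 7 members and the gene lists were chosen with earlier results of these data known. Symbols with a single solution whose mean reached 10 in either season (7623) were fitted with edgeR 4.0.16 in R 4.3.3 (quasi-likelihood test, size factors of the solved steps). At an unadjusted p under 0.05 and more than 2-fold, 128 symbols passed, 65 higher in winter and 63 in summer. At an adjusted p under 0.05, 0 passed, against 152 at an unadjusted p under 0.05 and 1 each by edgeR's exact test and DESeq2 1.42.0. Alternatives were other scalings, filters and tests, and leaving out each library. Named genes were all members and their relatives, the list genes that passed the rule or else the 2 highest and 2 lowest ratios, the 10 genes nearest the members, and others picked after their values were seen (AIF1, PTPRC, FOLR2, MAF, CCL2 and OXT). Some genes that this rule names are not reported here. Lists were given by counts and medians. Scripts were tested on simulated data. With a spread like that of these libraries, the rule there called 114 of 151 changed genes, but also 391 unchanged genes. At an adjusted p under 0.05 the quasi-likelihood test called 6 changed and 0 unchanged genes. Passing the rule is thus weak evidence for a single gene. With 2 libraries per season, every difference is imprecise. Intervals are exact, at 95%, and reads are not molecules, so they leave out all but counting error. Plots were made in matplotlib 3.10.9.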

Additional observations from a re-analysis of the deposited data

How the results depend on the processing

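No paired analysis was possible, because the winter and summer camels were different animals, slaughtered in El Oued and in Ouargla. The labels share replicate number 2 between the seasons, but that pairs nothing, and the recovered libraries carry no numbers. Leaving out each library in turn, the log2 ratio of CD163 ran from -7.63 to 0.09 under the winter solution with 2 reads. There it was -7.63 without winter library B, 0.0947 without summer library A and 0.0094 without winter library A. Under the other solution the CD163 ratio ran from -1.59 to 0.09. The log2 ratio ran from -1.81 to 2.21 for MRC1, -0.44 to 1.34 for LYVE1 and -0.51 to 1.57 for MSR1. CD163, MRC1, LYVE1 and MSR1 changed sign. Without summer library A it was -0.24 for LYVE1 and -0.51 for MSR1, and without winter library B -0.49 for MSR1. STAB1 (-1.58 to -0.74), F13A1 (-2.31 to -0.87) and SIGLEC1 (0.76 to 2.27) kept their sign. The median of the 7 genes ran from -1.0 to 0.76, the latter without summer library B. Under other scalings the median of the 5 fitted members lay between -0.90 and -0.70, and none of them changed sign.

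Of 7623 symbols, 128 passed the rule, against 60 with DESeq2 and 79 when the mean had to reach 10 in both seasons. Leaving out a library moved that count to between 33 (without winter library A) and 1154 (without summer library B), with 1098 without summer library A and 50 without winter library B. In these fits the lone library of a season is assumed to vary like the pair of the other. The common coefficient of variation was 0.460, against 0.288 when 1 summer library was left out, whichever it was. List medians changed sign with no filter for other border macrophage genes (0.032), red cells and platelets (-0.28) and pericytes and smooth muscle (0.18). In the fit on recovered reads, which holds fewer genes, they did so for growth factors and recruitment (0.22), microglia (0.14), red cells and platelets (-0.13) and magnocellular neurones (-0.26), and moved for endothelium (-0.53), pericytes and smooth muscle (-0.52), haem and iron (-1.28) and other border macrophage genes (-0.39). Over all 7623 symbols the median of that fit was -0.11. With no filter the medians of blood monocytes and neutrophils (-0.72) and lymphocytes (-0.42) moved. List medians without each library were added after seeing the data. With a pseudocount of 5 in place of 1, 4 of the 10 nearest genes were shared. Few reads limit LYVE1, MSR1 and above all SIGLEC1.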

Other observations

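The 5 genes nearest to MRC1 alone in their pattern over the 4 libraries, by the same distance, were GABRR3, MFAP5, PIH1D3, TYRP1 and ACOXL, at distances of 0.0839 to 0.242. GABRR3 encodes a GABA receptor subunit of the retina and TYRP1 a melanosome enzyme. The 5 nearest to F13A1 alone were CNIH4, ACMSD, PCDHB3, TIFA and FCGR3, at distances of 0.0873 to 0.373. FCGR3 encodes a receptor for immunoglobulin G of natural killer cells and macrophages. These profiles were chosen after the data were seen.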
